A study of Homo sapiens with 14 samples.

Results

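The MAP kinase phosphatases DUSP1, DUSP2, DUSP4, DUSP5, DUSP6, DUSP7, DUSP8, DUSP10 and DUSP16 were examined as 9 of 20136 protein-coding genes, each with its gene body and 10 kb on either side. All peaks that overlapped these windows were collected by mark, matrix and replicate, whatever their strength. The peaks came from CUT&Tag, an assay that sequences the DNA cut loose by a transposase tethered to an antibody. The cells were LX-2, a line of immortalised stellate cells from human liver with the wild type genotype, kept on soft or stiff matrix for 2 days, with 2 libraries per matrix for phosphorylated JUN (p-JUN), for H3K4me3, a mark of active promoters, and for H3K27me3, a repressive mark. For H3K27ac, found at active enhancers and promoters, each matrix had 1 merged list, so it has no replicate check. No RNA or protein was measured in these 14 lists, so nothing here is a level of a phosphatase. The stiff p-JUN libraries carry TCP in their titles where the stiff histone libraries carry 40K. The study uses TCP for tissue culture plastic, so for p-JUN "stiff" means the libraries labelled so. The study calls its sequencing replicates biological. The labels do not say which step was repeated for each library, and the p-values measure the spread between these libraries.

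MAP kinase phosphatases remove phosphate from both the threonine and the tyrosine of the activation loop of ERK, JNK and p38, and so switch these kinases off. Several of their genes are themselves induced by the kinases, which makes them textbook negative feedback regulators. JUN, a subunit of the AP-1 transcription factor, is a substrate of JNK. DUSP1, DUSP2, DUSP4 and DUSP5 are the inducible nuclear enzymes, DUSP6 and DUSP7 are cytoplasmic and prefer ERK, and DUSP8, DUSP10 and DUSP16 prefer JNK and p38.

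A p-JUN region called in every library lay at all 9 genes. Sequences are shown for most such regions with an AP-1 motif within 50 bp of the summit, and for each CRE within 250 bp. These motifs are shown because they are what JUN dimers are known to bind. AP-1 motifs (TGACTCA, or TGAGTCA on the other strand) and the cyclic AMP response element (CRE, TGACGTCA, its own reverse complement) were searched on both strands of GRCh37. The AP-1 letters do not occur inside the CRE, so no match was counted under both. Sequences are printed for the + strand, centred on the summit of the strongest library (101 bases) or on the motif (41 bases), with the motif in capitals. Positions are in bp from the start site of the gene, along its transcription.
DUSP1 at 12873 bp, chr5:172185275-172185375: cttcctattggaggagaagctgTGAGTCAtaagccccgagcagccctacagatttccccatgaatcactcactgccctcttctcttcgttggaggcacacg
DUSP1 at -7135 bp, chr5:172205309-172205409: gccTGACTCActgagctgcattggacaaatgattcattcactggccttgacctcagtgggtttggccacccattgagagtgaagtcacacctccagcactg
DUSP1 promoter at -122 bp, chr5:172198300-172198340: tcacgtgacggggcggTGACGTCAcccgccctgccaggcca
DUSP2 at -3251 bp, chr2:96814385-96814485: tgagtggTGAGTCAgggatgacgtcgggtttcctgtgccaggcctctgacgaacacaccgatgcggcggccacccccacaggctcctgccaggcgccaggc
DUSP5 at 15082 bp, chr10:112272696-112272796: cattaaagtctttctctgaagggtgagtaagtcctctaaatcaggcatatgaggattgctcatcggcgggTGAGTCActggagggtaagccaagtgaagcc
DUSP7 at -6189 bp, chr3:52096727-52096827: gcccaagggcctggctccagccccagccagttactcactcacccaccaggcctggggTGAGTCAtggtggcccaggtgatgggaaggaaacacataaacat
DUSP8 at 7556 bp, chr11:1585895-1585995: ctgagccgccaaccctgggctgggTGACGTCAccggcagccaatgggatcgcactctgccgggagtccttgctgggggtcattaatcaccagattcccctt
DUSP8 promoter at -71 bp, chr11:1593552-1593592: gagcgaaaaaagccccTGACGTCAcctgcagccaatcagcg
DUSP8 promoter at -115 bp, chr11:1593596-1593636: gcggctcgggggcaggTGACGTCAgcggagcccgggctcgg

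The summits of another pair of regions are shown because later results turn on them, and neither holds either motif within 50 bp. The first is the DUSP6 promoter region, which was lower on stiff, and the other is the region downstream of DUSP7 with the most H3K27ac.
DUSP6 promoter at -277 bp, chr12:89746568-89746668: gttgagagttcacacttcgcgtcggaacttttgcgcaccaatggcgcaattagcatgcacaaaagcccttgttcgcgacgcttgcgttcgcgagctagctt
DUSP7 at 10004 bp, chr3:52080557-52080657: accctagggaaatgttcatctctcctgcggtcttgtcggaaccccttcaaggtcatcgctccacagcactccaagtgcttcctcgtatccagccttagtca

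Of the 23 p-JUN regions at these genes that were called in all 4 libraries, 6 held an AP-1 motif within 50 bp of the summit (26.1%), against 34.8% of the 40433 such regions of the genome. Besides the 5 printed, the other one was at 9143 bp of DUSP4, in an intron. Within 250 bp there were 9 with an AP-1 motif (39.1%), against 55.2% of all. A CRE lay within 50 bp at 1 region, against 0.910% of all, and within 250 bp at 3 regions (13.0%), against 1.76% of all. Those 3 were the DUSP1 promoter, the DUSP8 promoter with 2 copies, and the DUSP8 intron at 7556 bp. A match of letters is a description of the window and not a measured binding site. A missing match says only that these letters are not there.

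The 9 windows together held 27 and 25 p-JUN peaks on soft versus 24 and 26 in the libraries labelled stiff, which gives 26 ± 1.41 and 25 ± 1.41 (SD, n = 2). The groups overlap, and the log2 ratio of -0.06 is smaller than the spread between replicates. Merging peaks that shared at least 1 bp gave 29 p-JUN regions, of which 23 were called in all 4 libraries, 1 was soft-only (called in each soft library but in none labelled stiff), and 5 were called in another mixture. No region was stiff-only. Over the whole genome 65.8% of 61411 p-JUN regions were called in every list, 2.75% were stiff-only and 1.74% were soft-only. All 9 genes had a p-JUN region called in every library, which was so for 66.3% of protein-coding genes. At 7 genes it lay within 1 kb of a start site, which was so for 37.7% of protein-coding genes, and the exceptions were DUSP2 and DUSP7. Pooled over windows, there were 0.608 such regions per 10 kb at these genes and 0.196 at all protein-coding genes. The windows differ in length, with a median of 33.6 kb for these genes and 47.2 kb for all.

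**Figure D1:**
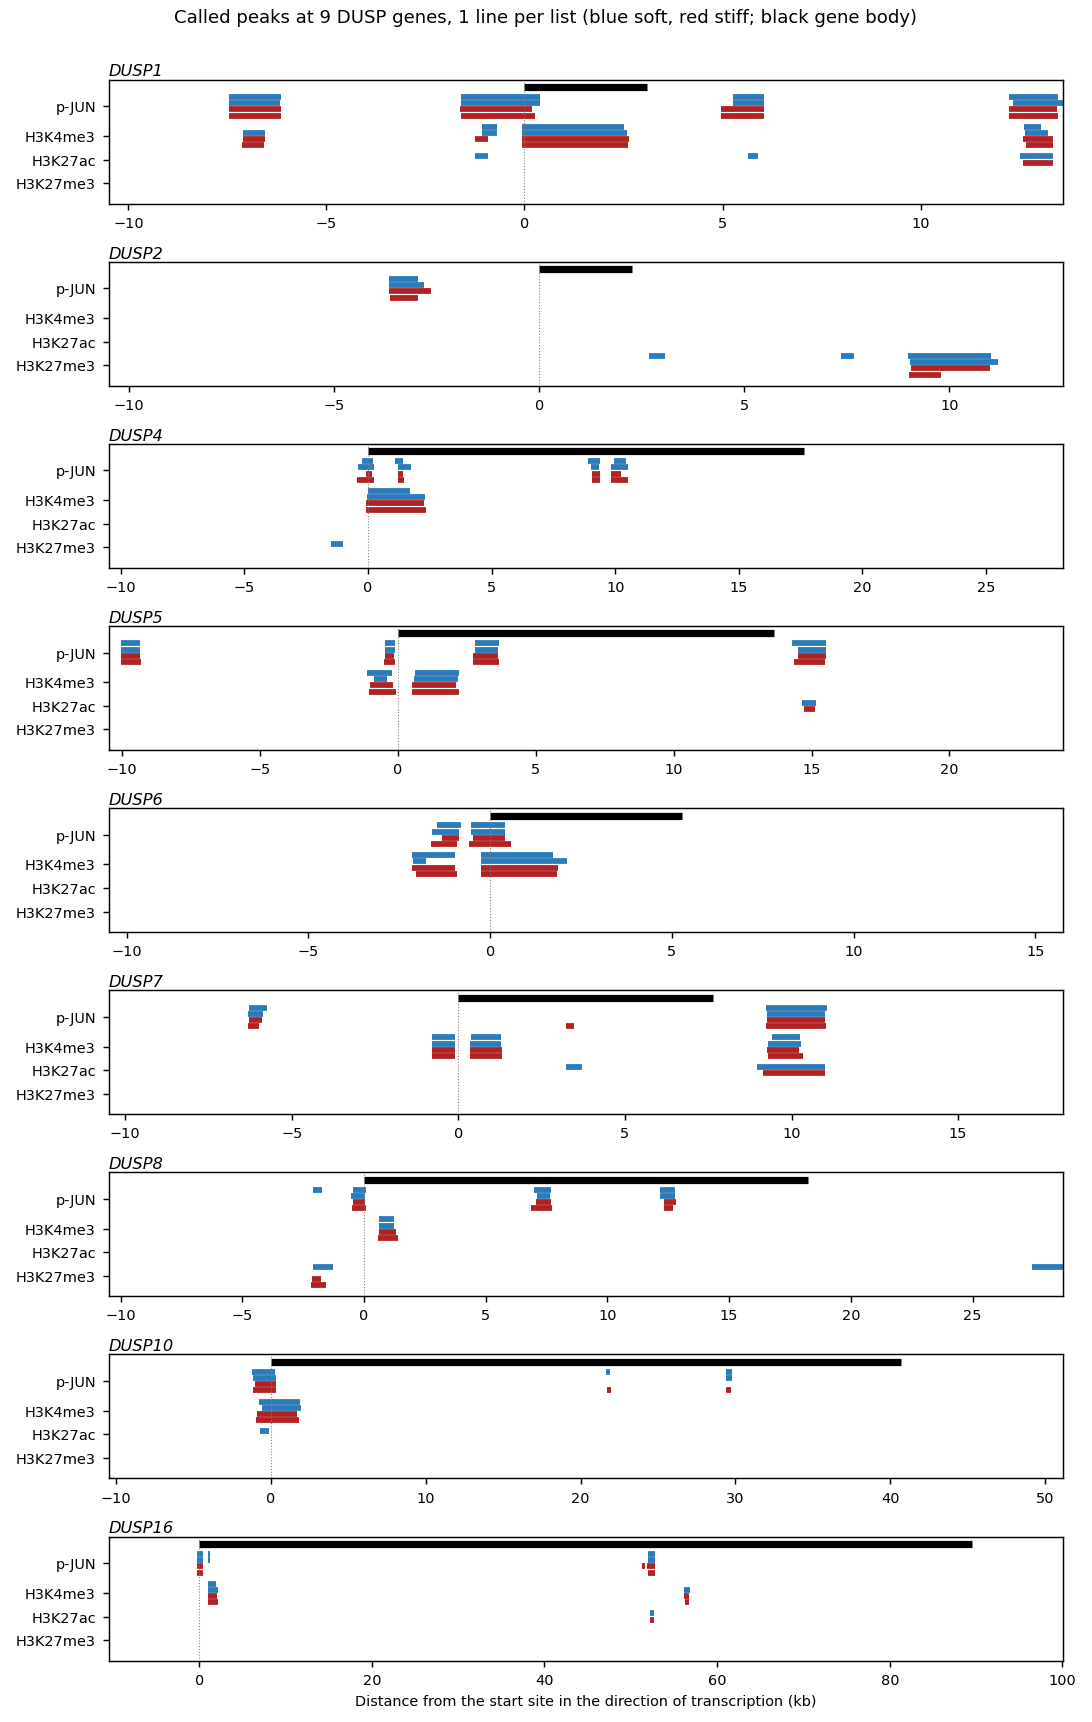
Called peaks in the window of each DUSP gene, plotted by distance from the start site along transcription (kb), with 1 line per library or merged list of p-JUN, H3K4me3, H3K27ac and H3K27me3 in that order, blue for soft and red for stiff, and the gene body in black. The p-JUN regions at 23 positions have all 4 lines, DUSP2 has no H3K4me3 or H3K27ac, and 4 H3K27ac peaks are blue only.

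The strength of a region was read as the number of fragments at its summit, recovered from the deposited fold and −log10 p of each peak. For comparisons these counts were divided by a factor per library, from 0.930 to 1.08 for p-JUN and from 0.768 to 1.40 for H3K4me3, so that the median region was alike, and are then called scaled fragments. Unscaled, the 23 shared p-JUN regions had a median of 152 fragments (mean over libraries), against 77.5 for all shared regions. Of the 23, 9 lay above the 90th percentile of all shared regions (252.75 fragments) and 0 above the 99th (605 fragments). The strongest region of each gene ranged from 65.8 fragments at DUSP6 and 75.8 at DUSP4 through 152 at DUSP10 and 160 at DUSP8 to 276 at DUSP2, 319 at DUSP16, 358 at DUSP1, 441 at DUSP7 and 462 at DUSP5. Among the 13347 protein-coding genes with a shared p-JUN region in the window, 4.90% had a higher best region than DUSP5. The share with a higher one than DUSP6 was 66.3%. The ranges over libraries overlap between DUSP6 and DUSP4, DUSP10 and DUSP8, DUSP2 and DUSP16, DUSP16 and DUSP1, and DUSP7 and DUSP5. Within each library DUSP4 was above DUSP6, DUSP16 above DUSP2, and DUSP1 above DUSP16. The order of DUSP10 and DUSP8, and that of DUSP7 and DUSP5, changed between libraries and is not set.

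Scaled fragments at regions called in all 4 libraries were compared between matrices by limma, fitted over all such regions of the genome with Benjamini-Hochberg adjustment. A single value in 2 libraries against 2 cannot reach an exact permutation p below 0.33. Of the 23 p-JUN regions at these genes, 2 were lower on stiff in this test, at the promoters of DUSP4 and DUSP6, and none was higher. The background of such calls was 4.71% lower and 7.97% higher among 40433 regions. Over the 23 regions the median log2 difference was -0.01, the same as the median of -0.01 over all regions, and 13 were below 0 and 10 above. The libraries of the matrices did not overlap at 13 of the 23, of which 10 were lower on stiff and 3 higher. Among all regions 27.6% had groups that did not overlap with stiff lower, and 27.4% with stiff higher. With the deposited fold in place of fragments, 13 of the 23 were above 0. Their median log2 difference was then 0.011, against -0.002 over all shared regions.

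**Figure D2:**
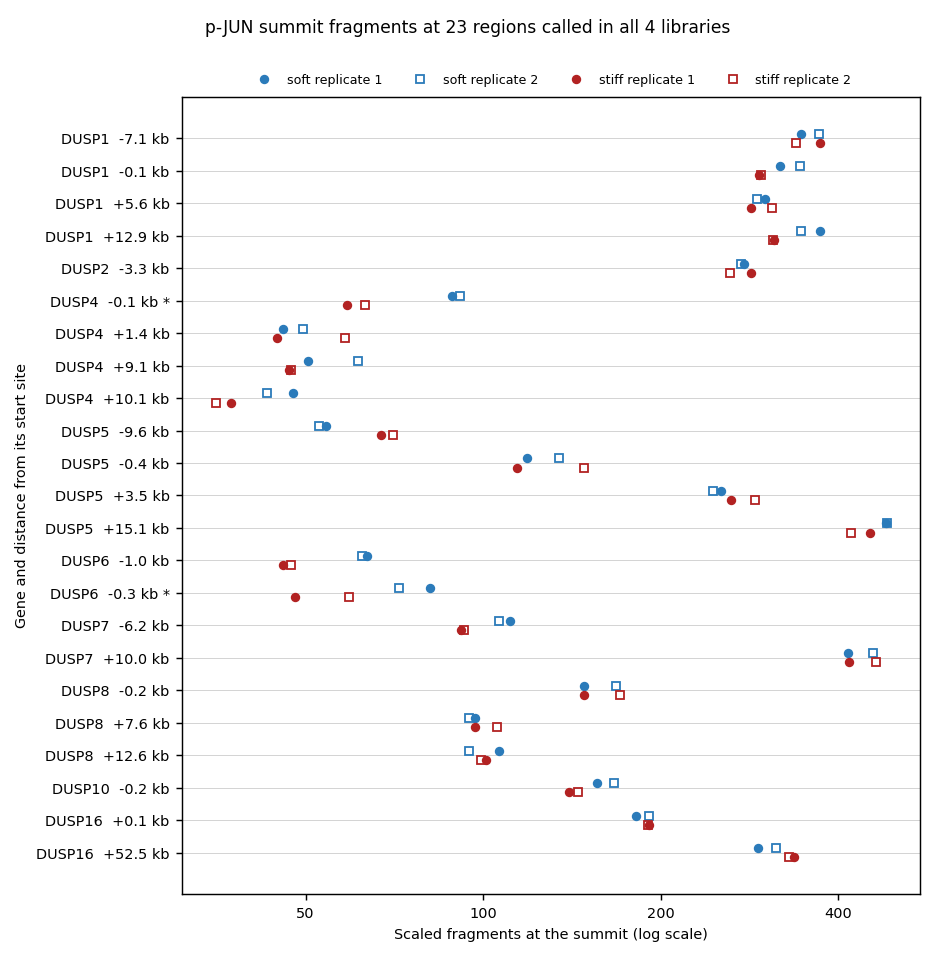
Scaled p-JUN fragments at the summit (x axis, log scale) in soft (blue) and stiff (red) libraries, filled for replicate 1 and open for replicate 2, at the 23 regions called in all 4 libraries, with the distance from the start site in kb and an asterisk at an adjusted p under 0.05. The stiff points lie left of the soft points at the promoters of DUSP4 and DUSP6, while at all 3 regions of DUSP8 the groups overlap.

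DUSP1, an immediate early gene whose nuclear product acts mainly on JNK and p38, lies on chromosome 5 from 172195099 to 172198198 on the minus strand and had 4 p-JUN regions, each called in all 4 libraries. At the region of 12873 bp, in an intron of a non-coding gene, scaled fragments were 372 and 346 on soft versus 311 and 311 on stiff. Both stiff libraries were lower, and the log2 difference of -0.21 (SE 0.078) did not pass (limma adjusted p = 0.0614). With scaling at the 75th percentile it did (-0.24, adjusted p = 0.0245). The promoter region at -108 bp, with the CRE, held 319 and 344 scaled fragments on soft versus 293 and 296 on stiff, again lower in both stiff libraries and short of the threshold (adjusted p = 0.152). At 5646 bp and at -7135 bp the groups overlap, with log2 differences of 0.00 and -0.01. The summit strength at DUSP1 is high in every library, since its regions all lay in the upper 7.11% of shared p-JUN regions.

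DUSP2, a nuclear phosphatase known best from activated leukocytes, lies on chromosome 2 from 96808908 to 96811179 on the minus strand. It had a single p-JUN region, at -3251 bp between genes, with 277 and 274 scaled fragments on soft versus 285 and 262 on stiff. The stiff libraries lie on both sides of the soft ones, and the log2 difference was -0.01 (SE 0.085). No H3K4me3 and no H3K27ac peak lay in its window in any list, so this strong p-JUN region stood without either mark. It was the only gene of the 9 without an H3K4me3 promoter peak.

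DUSP4, a nuclear phosphatase of ERK and JNK, lies on chromosome 8 from 29190581 to 29208201 on the minus strand and had 4 p-JUN regions, all called in every library, with means of unscaled fragments below the median of all shared p-JUN regions. At the promoter region of -66 bp scaled fragments were 88.7 and 91.4 on soft versus 58.7 and 63.0 on stiff. Both stiff libraries were below both soft libraries, at 0.675 times the soft mean (log2 -0.57, SE 0.16, limma adjusted p = 0.0108). With scaling at the 75th percentile it held (adjusted p = 0.00524). Without scaling the log2 difference was -0.56 with a wider SE of 0.24 (adjusted p = 0.359). It was -0.59 without soft replicate 1 (0.111) and -0.54 without soft replicate 2 (0.161), so the size stayed while the call was lost. With the deposited fold in place of fragments it was smaller (log2 -0.33, adjusted p = 0.471). At 1371 bp, beside another annotated start site of the gene, the groups overlap (45.7 and 49.5 on soft, 44.8 and 58.4 on stiff). The intronic regions at 9143 bp and 10135 bp had 50.4 and 61.3 on soft with 46.9 and 47.3 on stiff, and 47.6 and 43.0 on soft with 37.3 and 35.2 on stiff. Stiff was the lower group at both, and neither passed (adjusted p = 0.441 and 0.322).

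DUSP5, a nuclear phosphatase selective for ERK, lies on chromosome 10 from 112257665 to 112271291 on the plus strand. Its strongest p-JUN region was 15082 bp from the start site, beyond the end of the gene, with 483 and 484 scaled fragments on soft versus 453 and 421 on stiff. The stiff libraries were lower, and the log2 difference of -0.15 (SE 0.067) did not pass (limma adjusted p = 0.144). At the far upstream region of -9624 bp, in an intron of the divergent transcript DUSP5-DT, the order was the other way, with 54.1 and 52.7 on soft versus 67.2 and 70.5 on stiff. That log2 difference of 0.37 (SE 0.18) was the highest of the 23 and did not pass either (adjusted p = 0.164). An intronic region at 3463 bp held 253 and 245 on soft versus 263 and 289 on stiff, with stiff higher in both libraries and an adjusted p of 0.269. At the promoter, -359 bp, the groups overlap, from 114 to 148 over the 4 libraries.

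DUSP6, the cytoplasmic phosphatase of ERK and a standard readout of ERK activity, lies on chromosome 12 from 89741012 to 89746278 on the minus strand. It had 2 p-JUN regions, both near the start site. At -277 bp scaled fragments were 81.2 and 72.0 on soft versus 48.0 and 59.3 on stiff. Both stiff libraries were lower, at 0.698 times the soft mean (log2 -0.52, SE 0.17, limma adjusted p = 0.0337). Of the 2 stiff libraries, replicate 1 was further from soft, and without it the adjusted p was 0.202 (log2 -0.36). The call held with scaling at the 75th percentile (adjusted p = 0.0193). It was lost with a log2 difference of -0.43 without soft replicate 1 (0.334), of -0.60 without soft replicate 2 (0.127) and of -0.51 without scaling (0.463), where the SE was wider at 0.24. With the deposited fold the difference was smaller (log2 -0.13, adjusted p = 0.804). The region at -1004 bp, with 63.5 and 62.4 on soft versus 45.9 and 47.3 on stiff, had the same order and did not pass (adjusted p = 0.107).

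DUSP7, a cytoplasmic phosphatase of ERK, lies on chromosome 3 from 52082935 to 52090587 on the minus strand. No shared p-JUN region lay at its own promoter. The region at 10004 bp, downstream of the gene, held 416 and 459 scaled fragments on soft versus 417 and 463 on stiff. The 2 groups have nearly the same values, and the log2 difference was 0.01 (SE 0.070). The region at -6189 bp, within 1 kb of the annotated start site of LINC00696, had 111 and 106 on soft versus 91.7 and 92.7 on stiff, lower in both stiff libraries and not past the threshold (limma adjusted p = 0.265). A peak of 45 unscaled fragments at 3400 bp was called in stiff replicate 2 alone.

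DUSP8, a phosphatase of JNK and p38, lies on chromosome 11 from 1575281 to 1593501 on the minus strand. Its 3 shared p-JUN regions did not separate the matrices. The promoter region at -216 bp, within which both CRE copies lie, held 148 and 168 scaled fragments on soft versus 148 and 171 on stiff. The intronic region at 7556 bp, with a CRE near its summit, held 97.1 and 94.6 on soft versus 97.1 and 106 on stiff, and that at 12585 bp 106 and 94.6 on soft versus 101 and 99.2 on stiff. The log2 differences were 0.01, 0.08 and 0.00, with SE of 0.11 to 0.14. A peak of 66 unscaled fragments at -1922 bp was called in soft replicate 1 alone.

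DUSP10, a phosphatase of JNK and p38, lies on chromosome 1 from 221874766 to 221915431 on the minus strand. Its promoter region at -234 bp held 156 and 167 scaled fragments on soft versus 140 and 145 on stiff. Both stiff libraries were lower, and the log2 difference of -0.18 (SE 0.11) did not pass (limma adjusted p = 0.303). Its 2 intronic regions were weak and unevenly called. At 29627 bp there were 44 and 39 unscaled fragments on soft versus 33 in stiff replicate 2, with no peak in stiff replicate 1. At 21767 bp there were 22 in soft replicate 1 and 35 in stiff replicate 2.

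DUSP16, which acts mainly on JNK, lies on chromosome 12 from 12626216 to 12715797 on the minus strand, and held the 1 soft-only p-JUN region. This was at 1079 bp, near another start site of the gene, with 48 and 40 unscaled fragments in the soft libraries and no peak in the stiff libraries. The region was weak, below the median of 60 to 64 fragments that the p-JUN lists have, and it was no longer soft-only with a stricter −log10 q of 10 or with lists of equal length. The strong intronic region at 52475 bp held 292 and 314 scaled fragments on soft versus 337 and 330 on stiff. Both stiff libraries were higher, and the log2 difference of 0.14 (SE 0.079) did not pass (limma adjusted p = 0.255). At 136 bp the groups overlap, at 182 and 191 on soft versus 191 and 190 on stiff. Another intronic peak at 51520 bp, of 61 unscaled fragments, was called in stiff replicate 1 alone.

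The 2 called regions were both at promoters, where the median over the whole p-JUN table was below 0 as well. By the summit of the strongest library, 10 of the 23 regions lay within 1 kb of a start site, with a median log2 difference of -0.18. All 6946 shared promoter regions had a median of -0.15, and 6.77% of them were called lower. For the other 13 regions the median was 0.00, against 0.03 over 33487. What this shift owes to the libraries was not tested.

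**Figure D3:**
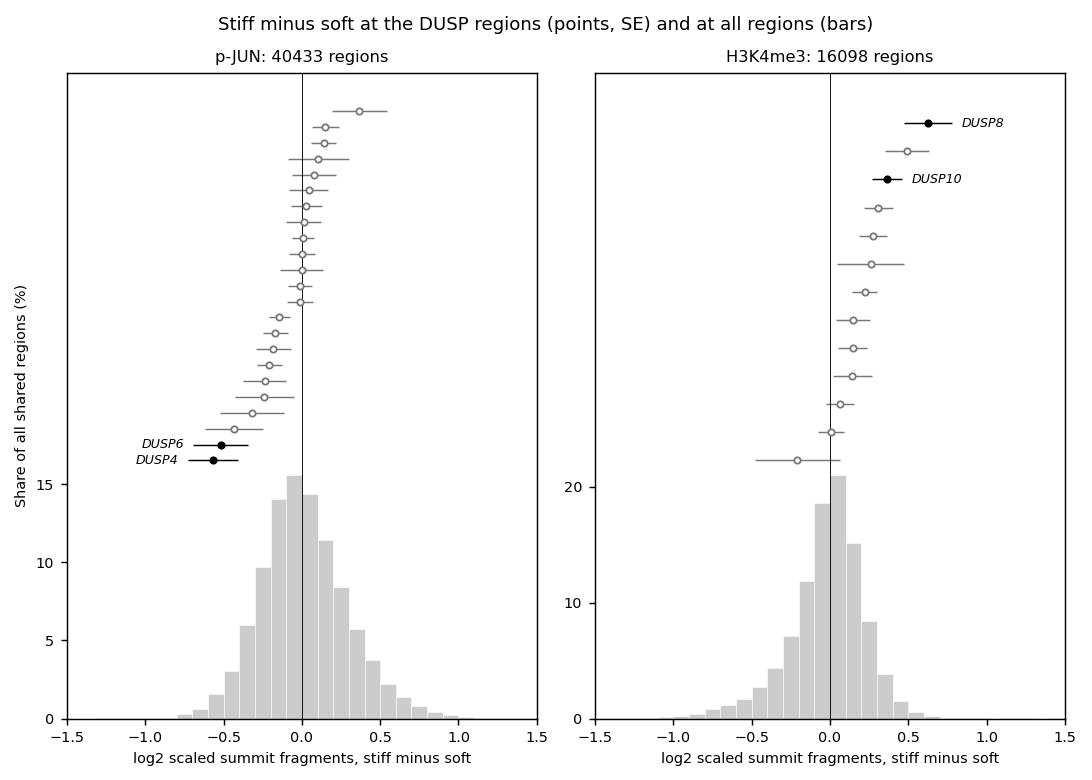
Difference in log2 scaled summit fragments, stiff minus soft, at the DUSP regions (points with SE from limma, filled and named where the adjusted p is under 0.05) above the distribution over all shared regions (grey bars, share in %, with values past 1.5 counted in the end bars), for p-JUN (left) and H3K4me3 (right). The p-JUN points lie on both sides of 0 with DUSP4 and DUSP6 at the low end, and 12 of 13 H3K4me3 points lie above 0 with DUSP8 at the high end.

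H3K4me3 lay within 1 kb of a start site at 8 of the 9 genes in all 4 libraries, with DUSP2 the exception, and did so at 61.9% of protein-coding genes. The H3K4me3 lists gave 14 and 16 peaks in the windows on soft versus 16 and 15 on stiff, or 15 ± 1.41 and 15.5 ± 0.707 (SD, n = 2), which overlap. Of 16 H3K4me3 regions, 13 were called in every list, 0 were stiff-only and 0 soft-only, where the genome had 78.9%, 1.77% and 1.25% of 20393 regions. The remaining 3 were called in 3 libraries each, at -915 bp and -6879 bp of DUSP1 and at 56516 bp of DUSP16.

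Scaled H3K4me3 fragments were higher on stiff at 2 of the 13 shared regions in the limma test, at the promoters of DUSP8 and DUSP10, and at none lower. The genome's 16098 shared regions gave 2.97% called higher and 1.98% called lower. The median log2 difference of the 13 was 0.22, against 0.00 over all shared regions, and 12 of the 13 were above 0. At 7 of the 13 both stiff libraries lay above both soft ones and at 0 below, where 26.1% of all regions did so in each direction (26.1% higher and 26.1% lower). The 8061 regions with the most fragments had a median of 0.06, and the 8 DUSP regions among them 0.18. The 8037 regions with the fewest had a median of -0.09, and the 5 DUSP regions among them, DUSP8 included, 0.26. With the deposited fold in place of fragments, 7 of the 13 were above 0. Their median log2 difference was then 0.09, against 0.002 over all shared regions.

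At DUSP8 the H3K4me3 region of 869 bp held 57.3 and 64.9 scaled fragments on soft versus 91.1 and 97.2 on stiff. Both stiff libraries were above the soft ones, at 1.54 times the soft mean (log2 0.63, SE 0.15, limma adjusted p = 0.0287). DUSP8 had the weakest promoter H3K4me3 of the 8 genes, and its p-JUN promoter region, given above, did not differ. The H3K4me3 call held with scaling at the 75th percentile (adjusted p = 0.0499). It was lost, at log2 differences of 0.58, 0.67 and 0.54, without stiff replicate 2 (0.150), stiff replicate 1 (0.0582) and soft replicate 1 (0.0508). With the deposited fold the difference was smaller (log2 0.18, adjusted p = 0.642). At DUSP10 the region of 371 bp held 206 and 210 scaled fragments on soft versus 251 and 286 on stiff, again without overlap, at 1.29 times the soft mean (log2 0.37, SE 0.095, adjusted p = 0.0374). That call was lost without stiff replicate 2 (log2 0.27, adjusted p = 0.353), with scaling at the 75th percentile (0.30, 0.0750), among regions above the median fragments (0.31, 0.114), with the replicate block (0.37, 0.0533) and with the deposited fold (0.20, 0.487). Neither call held without scaling, where the median of all regions moved by 0.45. The log2 differences were then 1.07 (SE 0.40) at DUSP8 and 0.81 (SE 0.42) at DUSP10, and both had an adjusted p of 0.535. The scaling factor of stiff replicate 2 was the highest of the 4, 1.40, and its part in the H3K4me3 differences was not tested beyond leaving it out.

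Near the threshold were the upstream region of DUSP5 at -457 bp, with 147 and 120 scaled fragments on soft versus 162 and 216 on stiff (limma adjusted p = 0.0509), and the DUSP6 promoter at 440 bp, with 285 and 348 on soft versus 390 and 392 on stiff (adjusted p = 0.0598). In both the stiff libraries were the higher group. The DUSP5 region passed without soft replicate 1 (0.000840) or stiff replicate 1 (0.00415), and was at 0.437 without stiff replicate 2. The DUSP6 region passed without soft replicate 2 (log2 0.45, 0.000203), and fell to 0.16 without soft replicate 1 (0.279). At DUSP4, whose p-JUN promoter region was lower, the H3K4me3 region at 892 bp did not separate the matrices (315 and 338 on soft, 323 and 332 on stiff). At DUSP1 the promoter region at 998 bp held 285 and 279 on soft versus 318 and 340 on stiff, with stiff higher in both libraries and an adjusted p of 0.123. DUSP7 had H3K4me3 at 821 bp and -492 bp, on either side of its start site, with log2 differences of 0.07 and 0.27 that did not pass. The weak region at 12843 bp of DUSP1, where p-JUN and H3K27ac peaks also lay, was the 1 with a log2 difference below 0 (-0.21, SE 0.27), with 26.0 and 17.8 on soft versus 19.4 and 17.9 on stiff, which overlap. DUSP16 at 1396 bp had 202 and 172 on soft versus 218 and 195 on stiff, which overlap.

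**Figure D4:**
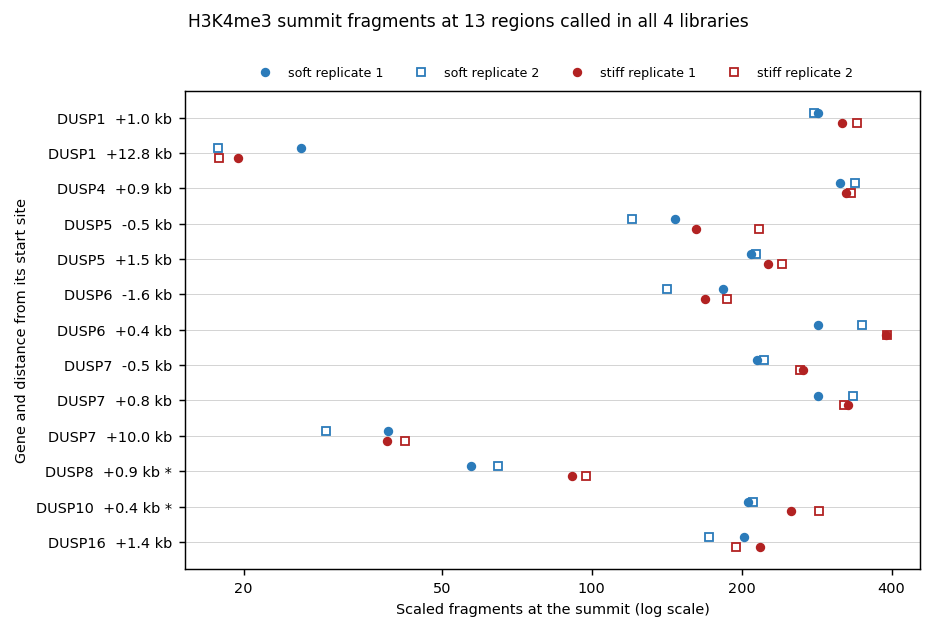
Scaled H3K4me3 fragments at the summit (x axis, log scale) in soft (blue) and stiff (red) libraries, filled for replicate 1 and open for replicate 2, at the 13 regions called in all 4 libraries, with the distance from the start site in kb and an asterisk at an adjusted p under 0.05. The stiff points lie right of the soft points at DUSP8, DUSP10 and 5 other regions, and the regions downstream of DUSP1 and DUSP7 are the weakest.

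H3K27ac lay near 5 of the 9 genes, and every peak of the stiff list had a partner in the soft list. The soft list had 8 peaks in the windows and the stiff list 4, which made 8 regions, of which 4 were in both lists, 4 were soft-only and 0 stiff-only. Over the genome 54.1% of 20403 H3K27ac regions were in both lists, 35.0% were soft-only and 10.9% stiff-only. The 4 genes with a region in both lists were DUSP1, DUSP5, DUSP7 and DUSP16, which was so for 39.2% of protein-coding genes. A soft-only region lay at 3 genes, DUSP1, DUSP7 and DUSP10, where 27.1% of protein-coding genes had one, and a stiff-only region at 0, where 9.83% had one. No gene of the 9 had H3K27ac within 1 kb of a start site in both lists, which 20.6% of protein-coding genes had.

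The 4 regions in both lists all lay away from the start site, each at a strong p-JUN region. At 9725 bp of DUSP7 the soft list had 131 fragments and the stiff list 123, a level in the upper 0.349% of regions in both lists. The log2 ratio of stiff to soft was -0.09 (95% exact binomial interval -0.46 to 0.28). For DUSP5 at 14955 bp the counts were 38 and 33 (log2 -0.20, -0.92 to 0.51), for DUSP1 at 13013 bp 37 and 23 (-0.69, -1.50 to 0.10), and for DUSP16 at 52431 bp 28 and 18 (-0.64, -1.58 to 0.27). The stiff count was the lower in all 4, every interval holds 0, and the median over all 11044 regions in both lists was -0.21. These intervals cover counting error only.

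The soft-only H3K27ac regions were at -920 bp of DUSP1 (44 fragments), at 5827 bp of DUSP1 (32), at 3468 bp of DUSP7 in a UTR exon (39) and at -158 bp of DUSP10 (24). The first is strong for its class, since 3.95% of all soft-only regions had at least as many fragments. The p-JUN regions that overlap those of DUSP1 and DUSP10 were called on both matrices, and the one at DUSP7 overlaps the p-JUN peak called in stiff replicate 2 alone. The stiff list was shorter, with 13322 peaks against 18238, and with lists of equal length 2 of the 4 were still soft-only.

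**Figure D5:**
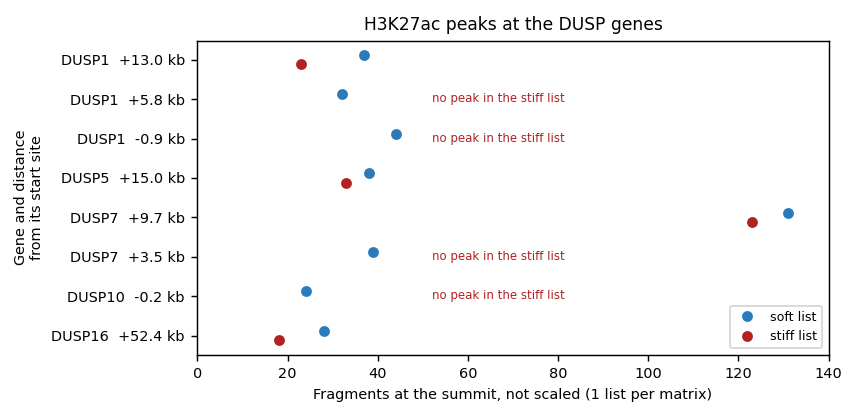
Fragments at the summit, not scaled (x axis), for the H3K27ac regions at the DUSP genes in the merged soft list (blue) and the merged stiff list (red), with the distance from the start site in kb and no error because there is 1 list per matrix. DUSP7 at 9725 bp stands at 131 and 123 fragments, the other regions lie at 44 or below, and 4 have no stiff peak.

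Of the 23 shared p-JUN regions, 10 overlapped H3K4me3 of any list (43.5%), against 25.0% of all shared p-JUN regions. With H3K27ac of the soft list 7 overlapped (30.4%), against 35.9%, and with that of the stiff list 4 (17.4%), against 27.5%. None overlapped H3K27me3, which 0.930% of all did.

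H3K27me3 had 5 and 2 peaks on soft versus 2 and 2 on stiff in the windows, or 3.5 ± 2.12 and 2 ± 0 (SD, n = 2), and no peak touched a gene body. Soft replicate 1 gave the higher count, and its whole list had 19843 peaks where the other 3 had 6974 to 9228. Of 6 regions, 1 was called in every list, 0 were stiff-only and 0 soft-only, where the genome had 10.2%, 0.484% and 7.54% of 25436 regions. The 1 shared region lay in the window of DUSP2, in an intron of the neighbouring gene ASTL, which made DUSP2 the only one of the 9 with such a region, where 6.87% of protein-coding genes had one. Its deposited fold over background was 1.88 and 2.00 on soft versus 2.14 and 2.13 on stiff. Both stiff values were higher, and the limma fit on log2 fold gave 0.09 (SE 0.060, adjusted p = 0.842). That fit called 0 of 2602 shared regions (0%), with 161 at an unadjusted p under 0.05. At -1736 bp of DUSP8 a region was called in 3 libraries, with folds of 4.34 in soft replicate 1 and 3.69 and 4.14 on stiff.

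The other genes of the same cascade were read in the same windows. A shared p-JUN region lay at 2 of 4 other MAP kinase phosphatases, 6 of 8 feedback inhibitors of ERK signalling, 9 of 11 genes of the ERK cascade and 8 of 10 atypical dual-specificity phosphatases. Their densities were 0.155, 0.237, 0.228 and 0.349 shared regions per 10 kb, against the 0.608 of the 9 genes above. Among the feedback inhibitors SPRED2, which restrains RAF activation, had the most shared p-JUN regions, 9 in a window of 141.8 kb. In the ERK cascade it was KSR1, the scaffold of RAF, MEK and ERK, with 7 in 190.0 kb, and among the other MAP kinase phosphatases PTPRR, with 5 in 302.7 kb. Among the atypical phosphatases DUSP15 had the most p-JUN regions, 4, of which 2 were shared. A stiff-only p-JUN region lay at MAP2K2, and soft-only ones at SPRY4 and DUSP15. H3K4me3 promoter peaks in every list were present at 8 of 8 feedback inhibitors, 11 of 11 cascade genes, 8 of 10 atypical phosphatases and 0 of 4 other MAP kinase phosphatases. A soft-only H3K27ac region lay at 2 of 8, 4 of 11, 4 of 10 and 1 of 4. The feedback inhibitors with one were SPRY2 and SPRED2, the atypical phosphatases DUSP14, DUSP18, DUSP23 and DUSP28, and the other MAP kinase phosphatase PTPN7. A stiff-only H3K27ac region lay at DUSP15, a stiff-only H3K4me3 region at DUSP15, a soft-only one at SPRED1, and a soft-only H3K27me3 region at PTPN5.

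Promoter marks were also read at markers of cell types. Of 10 stellate and mesenchymal markers, 7 had promoter H3K4me3 in every list, with COL1A2 and DES in none. Among all protein-coding genes 61.9% had it, so the stellate count does not by itself identify the line. Of 17 markers of hepatocytes, endothelium, leukocytes and epithelium, 3 had it, KDR, CD14 and EPCAM. PECAM1 was listed for endothelium and is not among the 17. No marker of either kind had promoter H3K27me3. The lists held 48163 to 54168 p-JUN peaks and 18096 to 18857 H3K4me3 peaks per library. Median summits held 60 to 64 fragments for p-JUN, 120 to 207 for H3K4me3 and 26 to 27 for H3K27ac.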

How the data were processed

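CUT&Tag peak lists of LX-2 cells were used as deposited. The authors trimmed reads with Trim Galore, aligned them to hg19 with Bowtie2, treated duplicates with Picard and used MACS2 to call peaks. The MACS2 version, options and control are not given in the sources used here. The deposited fold is the ratio of a summit to its local background, and beside it stand the authors' −log10 q, their −log10 p, and a score of the peak caller that was not used. H3K27me3 lists hold broad peaks with values averaged over the peak. Assays used 10000 cells by the labels, and more by the methods of the study.

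Summit fragments and local background were computed from the fold, taken as fragments plus 1 over background plus 1, and the −log10 p, taken as a Poisson tail. This gave whole fragments, within a relative error of 1e-04, for 100% of the peaks of p-JUN and of H3K4me3, and for 99.88% and 99.92% of those of H3K27ac in the soft and stiff lists. Read totals were not used here, so H3K27me3 depth is unknown. Peaks of a mark on 24 chromosomes sharing 1 bp were merged into regions. Stiff-only means called in every stiff list and no soft list. Log2 fragments, centred on the median of shared regions, were compared by limma 3.58.1 (R 4.3.3, trended eBayes), with samples grouped by the treatment label, and adjusted over all shared regions at 0.05. For H3K27me3 the log2 of the length-weighted fold was used. H3K27ac ratios have 95% exact binomial intervals. Genes came from GENCODE release 44 mapped to GRCh37. Other software was python 3.11.15, pandas 2.3.3, numpy 2.4.6, scipy 1.17.1, pysam 0.24.0 and matplotlib 3.10.9. The fit and the region step were tested on simulated data. The changes planted for the fit were larger than any difference reported here, so that test does not speak to calls of the reported size.

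The genes, the gene lists and the tests were chosen with earlier results of these data known. All 9 genes are named, with their strongest p-JUN region, each region called on 1 matrix alone and each region past the test; other regions are given for completeness. From the other lists a gene is named where its p-JUN regions are the most in its list or where it holds a region called on 1 matrix alone, and some such results are not reported here. Alternatives were another scaling, no scaling, the deposited fold, a filter on fragments, the replicate block, other window sizes, a stricter −log10 q, lists of equal length, merging within 200 bp, and leaving out each library.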

Additional observations from a re-analysis of the deposited data

How the results depend on the processing

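The 4 limma calls at these genes kept their direction under every alternative in which they were tested, and each was lost under some. The p-JUN calls numbered 2, with 3 under scaling at the 75th percentile (DUSP4, DUSP6 and DUSP1 at 12873 bp), 0 without scaling, 0 with the deposited fold, 1 among regions above the median fragments (where neither DUSP4 nor DUSP6 was tested, and the call is DUSP1 at 12873 bp), and 0 to 2 when each library was left out. Over the genome the p-JUN calls fell from 5125 to 222 without scaling and 0 with the fold (3777 at an unadjusted p under 0.05), and were 1611 and 1572 without soft replicate 1 and soft replicate 2. The H3K4me3 calls numbered 2, with 0 without scaling, 1 with scaling at the 75th percentile, 0 with the fold, 0 above the median fragments and 0 to 3 when each library was left out. Over the genome they fell from 797 to 1 without scaling, 0 with the fold (1624 unadjusted), 51 above the median and 331 without stiff replicate 2, and were 1268 and 1338 without soft replicate 1 and soft replicate 2. At the 75th percentile 200 were higher and 476 lower, where the main scaling gave 478 and 319. For p-JUN that scaling gave 2878 higher and 2804 lower, against 3222 and 1903. The cause of these changes was not tested.

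The deviations of same-numbered libraries correlated at 0.05, -0.06 and 0.04 for p-JUN, H3K4me3 and H3K27me3. These values cannot show whether such libraries were prepared together, which the labels do not say. The main fit had no replicate block. With the replicate block the member calls were 3 for p-JUN, DUSP1 at 12873 bp being added (adjusted p = 0.0439), and 1 for H3K4me3, where DUSP10 had 0.0533; the genome had 6160, 516 and 0.

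Counts of regions called on 1 matrix are small and move. With 50 kb on either side there were 3 stiff-only p-JUN regions, 1 stiff-only H3K4me3 region and 7 soft-only H3K27ac regions, and the log2 ratio of p-JUN peaks became 0.10. With a stricter −log10 q the soft-only p-JUN count was 0, the soft-only H3K4me3 count 1, the stiff-only H3K27me3 count 1 and the H3K27me3 log2 peak ratio 0.58. With lists of equal length the soft-only counts were 0 for p-JUN and 2 for H3K27ac, and the H3K27me3 ratio 0.42. In the gene body alone there was 1 soft-only H3K27ac region, and the H3K27me3 ratio could not be computed, with no peak in any library. Leaving out each library gave 0 to 1 stiff-only and 1 to 2 soft-only p-JUN regions, 0 to 2 and 0 to 1 for H3K4me3, and 0 to 1 and 0 to 3 for H3K27me3, whose log2 peak ratio ranged from -1.32 to 0.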
